A study of Mus musculus with 4 samples.

Results

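The 9 genes described here encode the vascular endothelial growth factor (VEGF) ligands Vegfa, Vegfb, Vegfc and Pgf, the receptor kinases Flt1, Kdr and Flt4, and the neuropilins Nrp1 and Nrp2. They were chosen by name from the rows of the gene count matrix, as ligands that cartilage and bone can supply and receptors that vessels carry, and all 9 of 9 names were found among 31053 genes. The cells came from 1 male mouse at postnatal day 6, from 2 tibiae pooled into 1 library, with the proximal and the distal tibia included. The mouse carried Col10a1Cre, the Rosa26-Tdtomato reporter, Irx3 +/Δ and Irx5 +/-, which the labels name the heterozygous control of an Irx3/5 study, and it received no treatment. The 4 sequencing entries hold that 1 library, so there is no replicate and no wild-type sample, and no value below has a test, a p-value or a standard error. Cre is driven from Col10a1, a gene of hypertrophic chondrocytes (HCs), so the reporter marks HCs and the cells that descend from them, and Irx3 is also lowered in that lineage. The secondary ossification centres were left out when the bone was dissected.

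VEGF-A is known as the signal by which hypertrophic cartilage and bone-forming cells draw blood vessels into the growth plate while cartilage is replaced by bone. It binds KDR, the main signalling receptor of endothelium, and FLT1, which binds it more tightly but signals weakly and also exists in a secreted form that traps ligand. VEGF-B and PGF bind FLT1, and VEGF-C binds FLT4 and, once processed, KDR. The neuropilins have no kinase of their own, hold VEGF at the cell surface beside the kinases, and also bind class 3 semaphorins together with plexins.

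Of 14181 barcodes, 8256 cells passed the limits on genes, mitochondrial and ribosomal UMIs, where a UMI (unique molecular identifier) stands for 1 captured transcript. They held 137265974 UMIs, at 2623 to 85279 and a median of 13957.5 per cell. Clusters were drawn without the genes of the VEGF pathway and its related lists, so that the members did not shape them, and 28 of 30 clusters were named, in 20 classes, from marker genes. A level is a gene's number of UMIs in a class for every 1000000 UMIs that the class holds (CPM). The range beside it is an exact Poisson interval at 95%. It covers counting error only, and neither variation between the cells of a class nor variation between mice. Intervals without overlap, and the ranges of ratios, are thus no test of a difference. The blood vessel-like class, 840 cells, held all 14 of its endothelial markers at 10 CPM or more, at 9074 CPM in sum against 99.5 CPM in the other cells. The chondro-osteogenic cells numbered 3114, of which 1930 were chondrocyte-like and 1184 osteogenic. Erythroid-like cells, which are not known to carry VEGF receptors, served as the measure of free RNA. The macrophage or osteoclast-like class (419 cells) was 1 cluster whose 10 leading genes held 3 macrophage markers (C1qa, C1qb and C1qc) and 3 osteoclast markers (Acp5, Atp6v0d2 and Ctsk), so it bears both names. The T or NK cell-like class had only 28 cells and was left out of the orders given below, which run over 19 classes.

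**Figure D1:**
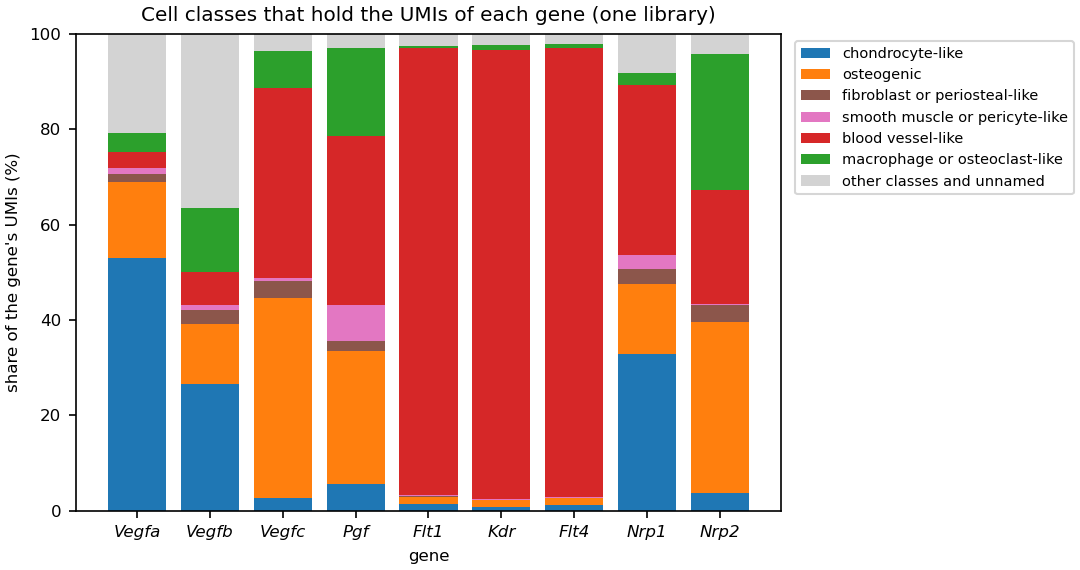
Stacked bars give, for each gene, the share (%) of its UMIs that fell in each cell class of the 1 library. Vessel-like cells (red) fill 93.7% to 94.2% of the bars of Flt1, Kdr and Flt4, whereas chondrocyte-like cells (blue) and osteogenic cells (orange) together fill 69.0% of the bar of Vegfa.

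Vegfa and the receptor kinases had most of their transcripts in different cells, whereas for Vegfc and Pgf the single class with the largest share was the vessel-like cells, which also hold the kinases. Chondrocyte-like and osteogenic cells together held 69.0% of the 11570 Vegfa UMIs, and the chondrocyte-like cells alone held 53.1% of them (52.1 to 54.0%, Clopper-Pearson) with 33.0% of all UMIs and 23.4% of cells. Vessel-like cells held 3.42% of Vegfa but 93.7% of 8772 Flt1 UMIs, 94.2% of 5842 Kdr UMIs and 94.1% of 1782 Flt4 UMIs, with 7.68% of all UMIs and 10.2% of cells. Of 1159 Vegfc UMIs, 39.9% lay in vessel-like cells and 30.1% in Cxcl12-abundant stromal-like cells. Of 1841 Pgf UMIs, 35.4% lay in vessel-like and 18.5% in macrophage or osteoclast-like cells. Pooled as for Vegfa, the chondrocyte-like and osteogenic cells held 44.5% of Vegfc, more than the vessel-like cells, and 33.5% of Pgf. Nrp1 (7355 UMIs) had 35.8% in vessel-like and 33.0% in chondrocyte-like cells, and Nrp2 (15185 UMIs) had 28.5% in macrophage or osteoclast-like, 27.0% in mature osteoblast-like and 23.9% in vessel-like cells. These shares depend on how many cells of each class were recovered by the digestion.

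The sequences just before the start sites of the receptor kinases and of Vegfa are shown because, of the members measured, the kinases had the largest ratios of vessel-like over chondro-osteogenic cells and Vegfa was the 1 member lower in vessel-like cells. Each is the 250 bases before a RefSeq start on GRCm38.p6, 5′ to 3′ on the gene's own strand, and capitals mark any match, on either strand, to the GC box GGGCGG, the ETS cores CCGGAA and CAGGAA, the hypoxia core ACGTG or the TATA box TATAAA. Flt1 is read from chr5:147726012-147726261 (minus strand), Kdr from chr5:75978456-75978705 (minus strand), Flt4 from chr11:49609429-49609678 (plus strand), and Vegfa from chr17:46032378-46032627 and, for a second start within the gene, chr17:46025164-46025413 (both minus strand).
Flt1: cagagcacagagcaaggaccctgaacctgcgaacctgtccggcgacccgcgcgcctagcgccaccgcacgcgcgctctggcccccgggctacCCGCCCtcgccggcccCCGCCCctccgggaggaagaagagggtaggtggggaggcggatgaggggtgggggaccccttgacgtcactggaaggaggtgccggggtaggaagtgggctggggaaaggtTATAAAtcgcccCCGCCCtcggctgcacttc
Kdr: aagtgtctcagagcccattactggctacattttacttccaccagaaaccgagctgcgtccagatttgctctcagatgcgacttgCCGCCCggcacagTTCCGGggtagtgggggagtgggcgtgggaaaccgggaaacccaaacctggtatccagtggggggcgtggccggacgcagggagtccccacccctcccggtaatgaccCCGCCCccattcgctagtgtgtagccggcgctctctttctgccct
Flt4: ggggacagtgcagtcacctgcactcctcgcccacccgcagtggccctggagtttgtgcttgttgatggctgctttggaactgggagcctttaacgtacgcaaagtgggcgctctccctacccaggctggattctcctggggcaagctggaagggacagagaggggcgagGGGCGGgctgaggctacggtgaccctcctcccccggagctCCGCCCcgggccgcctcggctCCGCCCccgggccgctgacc
Vegfa, upstream start: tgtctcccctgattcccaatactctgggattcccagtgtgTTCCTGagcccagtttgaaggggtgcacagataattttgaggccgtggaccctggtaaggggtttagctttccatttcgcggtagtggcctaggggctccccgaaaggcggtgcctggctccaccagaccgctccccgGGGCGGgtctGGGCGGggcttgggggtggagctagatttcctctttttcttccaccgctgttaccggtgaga
Vegfa, start within the gene: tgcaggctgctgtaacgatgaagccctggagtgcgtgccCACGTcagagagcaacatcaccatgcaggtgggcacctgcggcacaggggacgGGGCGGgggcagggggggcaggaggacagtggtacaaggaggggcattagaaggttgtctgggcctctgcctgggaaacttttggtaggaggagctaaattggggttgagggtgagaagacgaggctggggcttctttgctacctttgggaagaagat
The GC box was found 3 times before Flt1, 2 times before Kdr, 3 times before Flt4, 2 times before the upstream start of Vegfa and 1 time before the other. It lies in 32.7% of 32851 promoters of the same length. Kdr had 1 CCGGAA, found in 12.0% of promoters, the upstream Vegfa start had 1 CAGGAA (25.7%), and Flt1 had 1 TATAAA (12.4%). The inner Vegfa start had 1 ACGTG (16.6%), and the upstream start had 0. The stretch before the inner start lies within the Vegfa gene itself. Its opening bases, which hold the ACGTG, can be read in 1 frame as part of the VEGF-A protein. That match thus lies in coding sequence and cannot be read as one of a promoter outside the gene. The overlap of the stretch with annotated exons was not examined. A match of letters is a description and not a bound site. In the GENCODE M21 annotation of the same build the genes lie at chr17:46016993-46032369 (Vegfa, minus strand), chr5:147561604-147726011 (Flt1, minus), chr5:75932827-75978458 (Kdr, minus) and chr11:49609263-49652739 (Flt4, plus). By these coordinates the Flt4 stretch, with its GC boxes, also lies within its annotated gene and not upstream of it. The other members lie at chr19:6982473-6987651 (Vegfb, minus), chr8:54077606-54187096 (Vegfc, plus), chr12:85166635-85177790 (Pgf, minus), chr8:128358604-128503363 (Nrp1, plus) and chr1:62703285-62818695 (Nrp2, plus).

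Among the ligands, Vegfa was the broadest. Its level ran from 12.0 CPM in erythroid-like cells to 218 CPM in resting chondrocyte-like cells, and the intervals of the 18 other ranked classes all lay above that of the erythroid-like cells. Resting chondrocyte-like cells had the highest level (218 CPM, 208 to 229), followed without overlap by HC-like cells (189 CPM, 175 to 204). The 2 resting clusters, one led by Krt16 and F3 and the other by Penk and Sfrp5, stood at 218 and 220 CPM. The resting name is weakly marked. Of its 7 markers, 4 were 2-fold higher than in the other cells, and the lowest had 0 CPM. The cluster led by Krt16, 376 of the 490 cells, held 1 of them among its 10 leading genes. HC-like cells overlapped the Cxcl12-abundant stromal-like cells (162 CPM, 149 to 176), which in turn overlapped smooth muscle or pericyte-like cells (127 CPM, 106 to 150). Along the growth plate classes Vegfa did not follow a straight course. Proliferating and maturing chondrocyte-like cells both stood at 103 to 104 CPM with overlapping intervals, pre-HC-like cells at 125 CPM (118 to 132), and HC-like cells were above all 3.

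The pre-HC-like class was itself divided for Vegfa. Its cluster led by Ihh, the hedgehog ligand of pre-hypertrophic cells, had 157 CPM. The cluster led by 2610528A11Rik and Espn had 87.7 CPM, with the hypoxia-inducible genes Bnip3 and Egln1 among its top genes. This cluster, 194 of the 359 cells, is weakly marked. It held 0 pre-hypertrophic markers among its leading genes. It was named by its marker score, with maturing chondrocyte as the second choice. The class level of 125 CPM, and its place in the course above, thus rest on that name. In the osteoblast classes Vegfa was lower, at 91.8 CPM (84.2 to 100) in immature and 84.2 CPM (78.3 to 90.4) in mature osteoblast-like cells, and these intervals overlapped. Vessel-like cells had 37.6 CPM (34.0 to 41.4), level with promyelocyte-like (36.3 CPM) and neutrophil-like cells (34.8 CPM). With 3000 variable genes in the clustering, the class then named resting chondrocyte-like had 73.8 CPM, so the top place of that class rests on how the cluster was drawn. In thinned cells, each cut to 5000 UMIs, a Vegfa UMI was found in 52.4% of HC-like and 34.8% of maturing chondrocyte-like cells, against 13.98% of vessel-like and 4.64% of erythroid-like cells.

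Vegfb, a ligand of FLT1, was low in every class. It reached 20 CPM in 2 of 19 classes, macrophage or osteoclast-like cells (27.2 CPM, 23.7 to 31.0) and basophil or mast-like cells (21.1 CPM, 16.2 to 27.2). Only the interval of the macrophage or osteoclast-like cells lay above that of the erythroid-like cells (13.9 CPM, 11.8 to 16.3). Below the erythroid-like interval, without overlap, lay neutrophil-like (1.52 CPM, 0.730 to 2.80), monocyte-like (3.82 CPM) and mature osteoblast-like cells (5.12 CPM, 3.75 to 6.83), and likewise HC-like (7.66 CPM), pre-HC-like (8.35 CPM) and maturing chondrocyte-like cells (8.88 CPM). The erythroid-like level of Vegfb is thus no measure of free RNA. Vessel-like cells had 10.4 CPM.

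Vegfc, the ligand of FLT4, was nearly absent from cartilage. Cxcl12-abundant stromal-like cells had 100 CPM (89.9 to 111), vessel-like cells 43.9 CPM (40.0 to 48.1), and immature osteoblast-like cells 19.1 CPM (15.7 to 23.0), and none of these 3 intervals overlapped. No UMI was found in 359 pre-HC-like or in 159 proliferating chondrocyte-like cells, which allows up to 0.284 and 0.641 CPM by the limit of 3 counts. Maturing chondrocyte-like cells had 0.215 CPM, HC-like cells 0.851 CPM and mature osteoblast-like cells 3.01 CPM. The stromal-like class also carried erythroid marker transcripts at 48292 CPM in sum, against 184158 CPM in erythroid-like cells, and their part in its levels was not tested. Vegfc in the erythroid-like cells was 0.178 CPM. At a limit of 20% mitochondrial UMIs the stromal-like class shrank to 99 cells and its Vegfc stood at 187 CPM. At a limit of 5% mitochondrial UMIs, at resolution 0.6 and with 3000 variable genes, no stromal-like class was formed. None of its levels could be followed there.

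Pgf, which encodes placental growth factor, was highest in smooth muscle or pericyte-like cells (130 CPM, 109 to 153), with no overlap with the next class. Vessel-like cells (61.7 CPM, 57.1 to 66.7), stromal-like cells (51.1 CPM), macrophage or osteoclast-like cells (42.5 CPM) and immature osteoblast-like cells (42.5 CPM) followed, each overlapping its neighbour. Chondrocyte-like classes ran from 1.67 to 3.87 CPM, and erythroid-like cells had 0.0888 CPM. In 2 classes Pgf came from few cells. The 84 vessel-like cells with most Pgf held 95.2% of that class's 651 UMIs, with up to 53 UMIs in 1 cell, and the 42 macrophage or osteoclast-like cells with most held 82.1% of 341 UMIs. In smooth muscle or pericyte-like cells the 10 cells with most held 44.5% of 137 UMIs. Leaving out marked doublets moved the macrophage or osteoclast-like level to 66.3 CPM, and a limit of 5% mitochondrial UMIs moved the vessel-like level to 93.9 CPM.

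**Figure D2:**
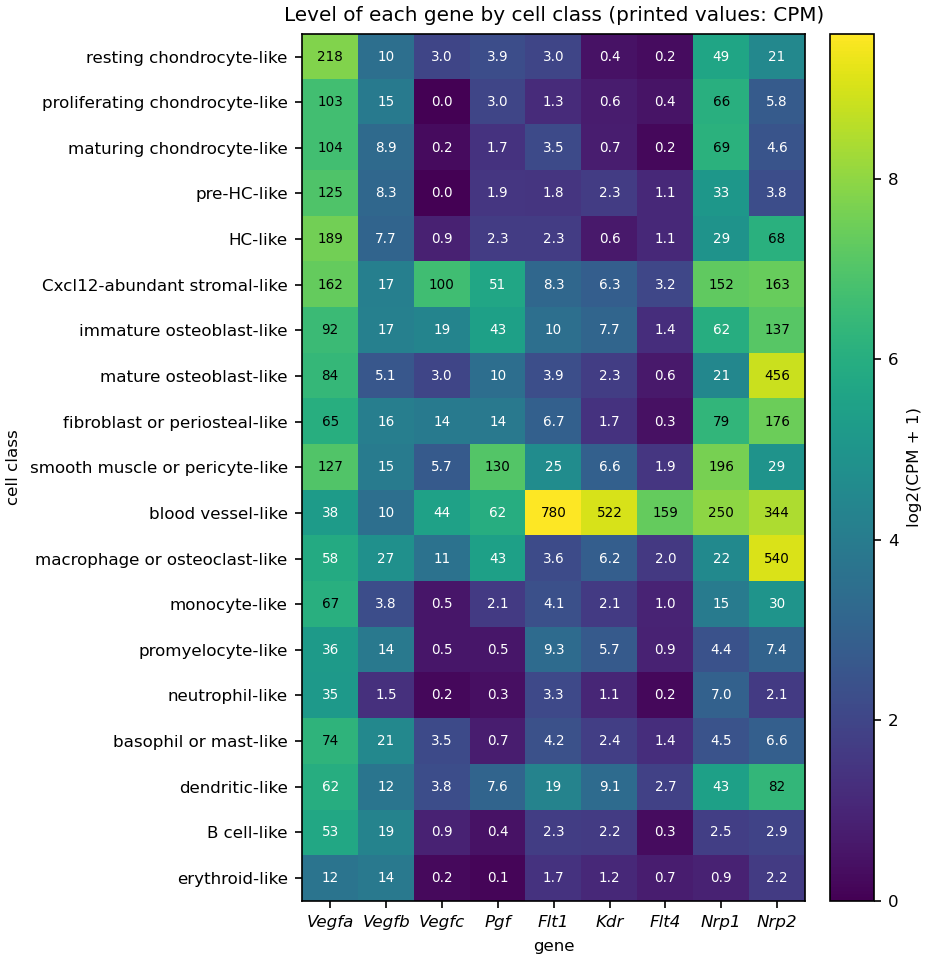
Each row is a cell class, each column a gene, and each cell prints the level in CPM, coloured by log2(CPM + 1). The columns of Flt1, Kdr and Flt4 have 1 bright row, the vessel-like cells (780, 522 and 159 CPM), whereas Vegfa is spread over the chondrocyte-like and osteogenic rows.

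Each receptor kinase had its transcripts almost wholly in the vessel-like cells. Flt1 stood at 780 CPM (763 to 797) in vessel-like cells, and the next classes were smooth muscle or pericyte-like (24.6 CPM, 16.1 to 36.1) and dendritic-like cells (18.6 CPM, 13.8 to 24.6). Kdr stood at 522 CPM (508 to 536) in vessel-like cells and at 0.375 to 9.13 CPM in the 18 others. Flt4 stood at 159 CPM (152 to 167) in vessel-like cells and at most at 3.16 CPM elsewhere. Among the 28 T or NK cell-like cells Kdr had 52.2 CPM from 11 UMIs, with vessel markers at 731 CPM in sum. Vessel markers also summed to 500 CPM in the smooth muscle or pericyte-like, 453 CPM in the fibroblast or periosteal-like and 259 CPM in the dendritic-like class, against 70.9 CPM in erythroid-like cells, and their part in the low receptor levels there was not tested. The counts do not separate the secreted from the membrane form of Flt1.

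Flt1 and Kdr were found together in most vessel-like cells, and a Flt4 UMI in fewer of them. Flt4 also had a lower level in the class (159 CPM, against 780 and 522 CPM). At equal depth a gene of lower level is caught in fewer cells. Its share thus does not divide the cells into those with and without Flt4. Shares of cells with both genes were not set against those that separate detection would give. After thinning to 5000 UMIs, which 751 of the 840 cells reached, a UMI was found in 94.1% of cells for Flt1 (92.2 to 95.7%, Clopper-Pearson), 87.9% for Kdr, 49.9% for Flt4, 70.7% for Nrp1 and 73.8% for Nrp2. Without thinning the shares were 98.5%, 95.8%, 68.8%, 84.4% and 83.9%. In 604 thinned erythroid-like cells they were 0.993%, 0.331%, 0.497%, 0.662% and 1.32%, with a median depth of 13774.5 UMIs against 9172 in vessel-like cells. Both Flt1 and Kdr had a UMI in 83.5% of vessel-like cells (80.6 to 86.1%), Kdr with Flt4 in 45.1% (41.5 to 48.8%), Kdr with Nrp1 in 63.6%, Kdr with Nrp2 in 66.0% and Flt4 with Nrp2 in 39.3%. No thinned erythroid-like cell held both Flt1 and Kdr. Vegfa and Nrp1 were found together in 25.1% of Cxcl12-abundant stromal-like and 19.6% of smooth muscle or pericyte-like cells, against 10.4% of vessel-like cells.

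The neuropilins were not restricted to vessels. Nrp1, the co-receptor of VEGF-A and of semaphorin 3A, was highest in vessel-like cells (250 CPM, 240 to 260), followed without overlap by smooth muscle or pericyte-like cells (196 CPM, 170 to 225) and Cxcl12-abundant stromal-like cells (152 CPM, 140 to 166). Fibroblast or periosteal-like (78.7 CPM), maturing (68.7 CPM) and proliferating chondrocyte-like (65.6 CPM) and immature osteoblast-like cells (61.9 CPM) formed a run in which each interval overlapped the next. Resting chondrocyte-like (48.9 CPM), pre-HC-like (32.9 CPM), HC-like (29.2 CPM) and mature osteoblast-like cells (20.6 CPM) were lower. The pre-HC-like level ran from 49.9 to 62.2 CPM under 4 of the alternative settings, and the HC-like level was 16.0 CPM at a limit of 5% mitochondrial UMIs. Erythroid-like cells had 0.888 CPM.

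Nrp2, the co-receptor of VEGF-C and of semaphorin 3F, had the only highest level among receptors and neuropilins that was not in vessels. Macrophage or osteoclast-like cells held 540 CPM (524 to 556), mature osteoblast-like cells 456 CPM (443 to 471) and vessel-like cells 344 CPM (333 to 356), with no overlap between them. Fibroblast or periosteal-like (176 CPM), stromal-like (163 CPM) and immature osteoblast-like cells (137 CPM) came next. In the fibroblast or periosteal-like class the cluster led by Aspn and Postn had 365 CPM and the cluster led by Mfap5 and Tnmd 67.6 CPM. Proliferating, maturing and pre-HC-like cells had 3.79 to 5.77 CPM, near the 2.22 CPM of erythroid-like cells. Resting chondrocyte-like cells had 21.5 CPM, which was 8.97 CPM at a limit of 5% mitochondrial UMIs and 12.9 CPM without doublets. The dendritic-like cells had 82.2 CPM, but 80.1% of that came from 19 of 194 cells, the class held all 12 mature osteoblast markers at 10 CPM or more (6400 CPM in sum), and the level was 7.81 to 18.9 CPM under 9 alternative settings.

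**Figure D3:**
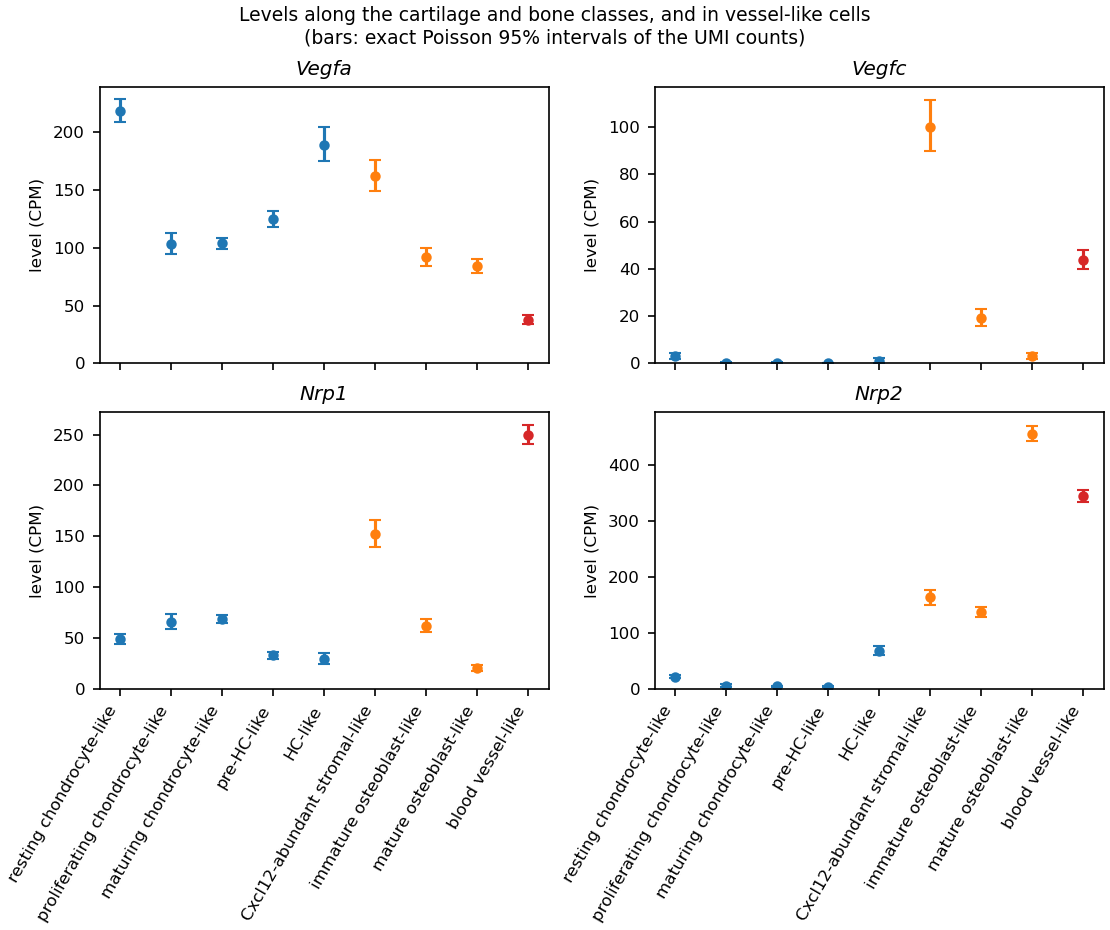
Points give the level (CPM) of Vegfa, Vegfc, Nrp1 and Nrp2 in the chondrocyte-like classes (blue), the osteogenic classes (orange) and the vessel-like cells (red), with exact Poisson intervals at 95% as bars. Vegfa is at 84.2 to 218 CPM in every cartilage and bone class and at 37.6 CPM in vessel-like cells, and Nrp2 climbs from 4.58 CPM in maturing to 67.8 CPM in HC-like and 456 CPM in mature osteoblast-like cells.

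Macrophage or osteoclast-like cells were clustered again to see which of them held Nrp2. In the sub-cluster named osteoclast-like (35 cells, Acp5 at 5975 CPM) Nrp2 was 653 CPM. Its leading genes held Mmp9, Ctsk and Dcstamp, but also Cxcl12 and Igfbp5 of the stromal-like and Tnc and Serpine2 of the immature osteoblast-like cluster. Nrp2 was 985 CPM in a sub-cluster led by Pgf and Iglc1 (74 cells, Acp5 at 2504 CPM), which also had the highest Pgf of the class, 130 CPM. Its leading genes Iglc1 and Ly6d also led a B cell-like cluster. The part of other cell types in these Nrp2 levels was not tested. In the macrophage-like sub-cluster (64 cells) Nrp2 was 189 CPM and Vegfb 52.6 CPM, and in the sub-cluster led by Il1b (97 cells) Nrp2 was 175 CPM and Vegfa 133 CPM. The other 149 of 419 cells fell in sub-clusters led by genes of B cells, neutrophils, erythroid cells or chondrocytes. Without them, the class had 574 CPM of Nrp2 and 52.2 CPM of Pgf.

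Set directly against the chondro-osteogenic cells, vessel-like cells had more of 7 members and less of 1. The comparison uses the log2 ratio of CPM with 1 CPM added, counts a gene as measured with at least 20 CPM on either side, and as higher or lower past 2-fold. Of 6776 genes measured, 29.4% were higher and 13% lower in vessel-like cells, and the median log2 ratio of all was 0.43. Kdr stood at 522 against 2.08 CPM (log2 ratio 7.41, 7.23 to 7.58), Flt1 at 780 against 3.87 CPM (7.32, 7.18 to 7.47) and Flt4 at 159 against 0.738 CPM (6.52, 6.32 to 6.70). Pgf (2.55), Vegfc (2.30), Nrp1 (2.16) and Nrp2 (1.85) were higher by smaller log2 ratios. The chondro-osteogenic side pools classes that differ, and 2 of these members were higher in a class within it than in vessel-like cells. Nrp2 was 456 CPM in mature osteoblast-like against 344 CPM in vessel-like cells. Vegfc was 100 CPM in Cxcl12-abundant stromal-like against 43.9 CPM in vessel-like cells. Vegfa was the member on the other side, with 37.6 against 126 CPM (log2 ratio -1.72, -1.86 to -1.57). Vegfb had 10.4 and 10.0 CPM and was not measured by this rule. The 8 calls were the same with the class sums scaled by edgeR's TMM or by DESeq2's size factors, although these scalings moved the share of higher genes among all called from 69.4% to 45.5% and 50%.

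Vessel-like cells are not a uniform group. Clustered again, 716 of them fell in 5 sub-clusters and 124 in 4 sub-clusters led by genes of B cells, neutrophils, erythroid cells or chondrocytes. Without those 124 cells the class had 873 CPM of Flt1, 587 CPM of Kdr, 178 CPM of Flt4 and 31.2 CPM of Vegfa. One sub-cluster (98 cells) was sinusoidal endothelial-like, with Stab2 and Mrc1 among leading genes that also held Mmp13, Ubd, Cxcl9 and Lpl. Another (108 cells), with Eln, Gja4 and Gja5 among its leading genes, was arterial or capillary endothelial-like. The others were a cycling group led by Pimreg and Racgap1 (96 cells), a group led by Arhgap6 and Gchfr (222 cells) and a group led by Pgf and Ctsg (192 cells). No sub-cluster was named lymphatic. Lyve1, which is on the sinusoidal and the lymphatic marker lists, had 0 to 0.93 CPM in these 5 and 0 CPM in the sinusoidal-like cells. The lymphatic marker Prox1 had 7.42 to 49.8 CPM and was highest in the sinusoidal-like cells.

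Flt1 and Kdr were high in all 5, at 802 to 1085 CPM and 460 to 750 CPM. Flt4, the VEGF-C receptor, was highest in the sinusoidal-like cells (332 CPM, 303 to 364) and lowest in the arterial or capillary-like cells (73.9 CPM, 58.9 to 91.6). Nrp2 followed the same division, with 428 CPM (395 to 464) against 90.8 CPM (74.1 to 110). Vegfc was at its highest where its receptor was at its lowest, with 206 CPM (180 to 234) in arterial or capillary-like cells against 13.3 CPM (8.02 to 20.8) in sinusoidal-like cells. Nrp1 stood at 442 against 224 CPM. Pgf was concentrated in the group that it led, with 227 CPM against 4.69 to 36.5 CPM in the other 4. The genes Ctsg and Mpo of promyelocytes and Bglap of osteoblasts were also among the leading genes of that group, and their part in its Pgf was not tested.

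**Figure D4:**
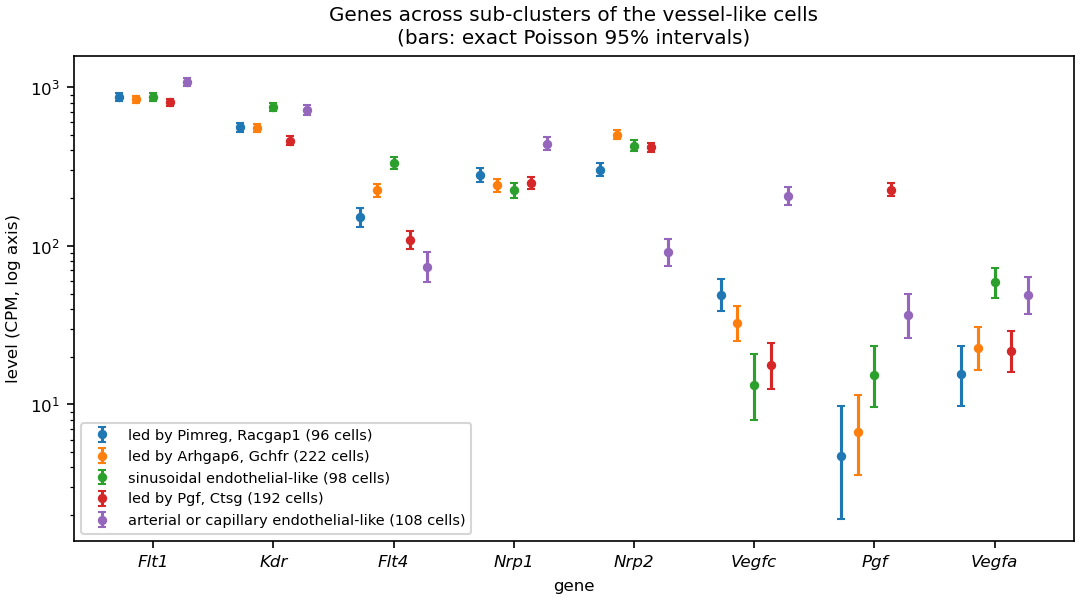
Points give the level (CPM, log axis) of 8 genes in 5 sub-clusters of the vessel-like cells, with exact Poisson intervals at 95% as bars. Flt1 and Kdr lie close together across the sub-clusters, whereas Flt4 (73.9 against 332 CPM), Nrp2 (90.8 against 428 CPM) and Vegfc (206 against 13.3 CPM) part the arterial or capillary-like from the sinusoidal-like cells.

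Between the arterial or capillary-like and the sinusoidal-like cells, 12.4% of 6687 measured genes were higher and 7.43% lower in the former, with a median log2 ratio of 0.18. Of the 8 members measured, Vegfc (log2 ratio 3.85, 3.21 to 4.55) and Pgf (1.19, 0.44 to 1.96) were higher, and Flt4 (-2.15, -2.50 to -1.82) and Nrp2 (-2.22, -2.54 to -1.92) lower. Nrp1 (0.97), Flt1 (0.33), Kdr (-0.06) and Vegfa (-0.26) did not pass 2-fold. Pgf was no longer past 2-fold with TMM scaling (0.98), and the share of higher genes among all called went from 62.5% to 44.5% with TMM and 45.3% with DESeq2's factors. The calls of Vegfc, Flt4 and Nrp2 were the same under both.

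HC-like cells (105 cells) were set against maturing chondrocyte-like cells (817 cells) to follow the ligands toward the vessel front. Nrp2 was higher in HC-like cells, 67.8 against 4.58 CPM (log2 ratio 3.62, 3.31 to 3.94), and Nrp1 was lower, 29.2 against 68.7 CPM (-1.21, -1.50 to -0.92). Vegfa was 189 against 104 CPM (0.86, 0.73 to 0.99) and did not pass 2-fold. Among 5976 measured genes 24.2% were higher and 7.3% lower, and since the median of all genes was 0.45, Vegfa stood 0.41 above it. With TMM or DESeq2 factors the median moved to -0.19 and -0.08, Vegfa stood at 0.29 and 0.39, and the share of higher genes among all called fell from 76.8% to 37.5% and 44.3%, with the calls of Nrp1 and Nrp2 the same. HC-like cells held 8 of 10 hypertrophic markers at 10 CPM or more (33116 CPM in sum, against 1137 CPM in maturing chondrocyte-like cells). The list is shared with bone cells, at 22595 CPM in immature osteoblast-like, 23006 CPM in mature osteoblast-like and 10725.5 CPM in Cxcl12-abundant stromal-like cells. Of the 10 markers, 5 were 2-fold higher in HC-like than in all other cells.

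Nrp2 in HC-like cells came mostly from few of them. The 10 cells with most Nrp2 held 69.9% of its 239 UMIs, up to 53 in 1 cell, and a UMI was found in 17.1% of thinned HC-like cells against 2.21% of maturing chondrocyte-like cells. Mature osteoblast markers, 11 of 12 at 10 CPM or more, summed to 5061 CPM in HC-like cells and 1171 CPM in maturing chondrocyte-like cells, and osteoclast markers to 295 and 142 CPM, and their part in the Nrp2 level was not tested. Ibsp and Phex are on both the mature osteoblast and the hypertrophic list, so the osteoblast sum is not a measure of osteoblast RNA alone. The level was 38.3 to 42.1 CPM under 3 alternative settings and 19.6 CPM at a limit of 5% mitochondrial UMIs.

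Along osteoblast maturation the neuropilins moved apart. Nrp2 was 456 CPM in 430 mature against 137 CPM in 468 immature osteoblast-like cells (log2 ratio 1.73, 1.62 to 1.84), and a UMI was found in 80.0% against 44.1% of thinned cells. Nrp1 was 20.6 against 61.9 CPM (-1.54, -1.80 to -1.29), and Pgf 10.1 against 42.5 CPM (-1.97, -2.30 to -1.64). Vegfa was 84.2 against 91.8 CPM (-0.12, -0.28 to 0.04). Among 6143 measured genes 5.19% were higher and 15.9% lower in mature cells, with a median of -0.46. The direction of Vegfa depends on the scaling, since it was 0.37 with TMM and 0.38 with DESeq2 factors, which also moved the share of higher genes among all called from 24.6% to 65.6% and 66.2%. The calls of Nrp2, Nrp1 and Pgf were the same under both. Vegfb and Vegfc lay under 20 CPM on both sides.

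The reporter allowed osteogenic cells to be divided by origin. Cells above 14 UMIs of WPRE, an element of the reporter transcript, were taken as HC-derived, which gave 285 HC-derived and 899 non-HC-derived cells in the 3 osteogenic classes. No member passed 2-fold among the 5 measured, where 0.608% of 5754 genes were higher and 0.991% lower. Vegfa was 110 CPM (101 to 119) in HC-derived and 98.3 CPM (93.0 to 104) in non-HC-derived cells (log2 ratio 0.16, 0.01 to 0.30). Nrp2 was 366 against 273 CPM (0.42, 0.34 to 0.50), and Pgf 21.4 against 30.8 CPM (-0.51, -0.81 to -0.21). Nrp1 and Vegfc had overlapping intervals, at 54.9 against 60.4 CPM and 26.0 against 26.9 CPM. The 2 sides differ in their mix of classes. Mature osteoblast-like cells made up 147 of the 285 HC-derived cells, a larger part than among the others. Of the 3 osteogenic classes, this one had the highest Nrp2 (456 CPM) and the lowest Pgf (10.1 CPM). The part of class mix in the pooled ratios was not tested, so they cannot be read as differences of origin alone.

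Within the osteogenic classes the same genes did not keep one direction. No member passed 2-fold among the 6 measured in the stromal-like, 5 in the immature and 3 in the mature class. Over all measured genes, 1.3% were higher and 2.28% lower in HC-derived stromal-like cells. These shares were 1.95% and 1.66% in the immature class, and 0.819% and 0.779% in the mature class. The median log2 ratio over all genes was 0.004, 0.03 and 0.13 in that order. Vegfa was higher in the 52 HC-derived stromal-like cells than in the 234 others, 212 CPM (178 to 250) against 150 CPM (136 to 165), and in the 147 HC-derived mature osteoblast-like cells than in 283 others, 97.3 CPM (86.9 to 109) against 76.7 CPM (69.7 to 84.2). In immature osteoblast-like cells it was 87.7 CPM in 86 HC-derived and 93.0 CPM in 382 other cells, with overlapping intervals. Nrp2 was higher in HC-derived cells of the mature class (509 against 426 CPM) but had 110 against 144 CPM in the immature and 132 against 171 CPM in the stromal-like class. Nrp1 was 82.0 CPM (66.7 to 99.7) against 56.5 CPM (49.8 to 63.9) in the immature class. Vegfc was 32.0 CPM (22.7 to 43.7) against 15.6 CPM (12.1 to 19.7) there. HC-derived cells were deeper than the others, at median depths of 15735 and 12631 UMIs, and within class at 11201.5 and 10276, 11610 and 10650.5, and 18984 and 18566 UMIs. The part of depth in the WPRE limit was not tested.

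**Figure D5:**
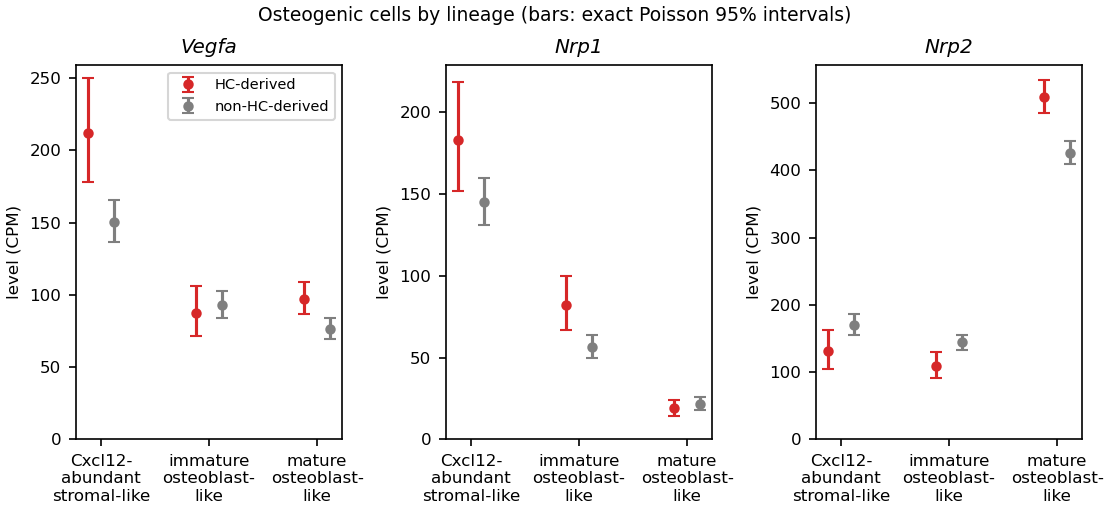
Points give the level (CPM) of Vegfa, Nrp1 and Nrp2 in HC-derived (red) and non-HC-derived (grey) cells of the 3 osteogenic classes, with exact Poisson intervals at 95% as bars. Red lies above grey for Vegfa in the stromal-like (212 against 150 CPM) and mature classes. For Nrp2 the order in the mature class (509 against 426 CPM) is opposite to that in the other classes. No measured member passed 2-fold in any of these classes.

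The other genes of the pathway were taken as 6 lists of related genes, counted in the same comparisons. Over all measured genes, 29.4% were higher and 13% lower in vessel-like than in chondro-osteogenic cells. Of 16 other VEGF pathway genes, 8 were measured between vessel-like and chondro-osteogenic cells, 5 higher and 1 lower, with a median log2 ratio of 1.77 against 0.43 over all genes. Ptprb, a phosphatase of endothelial junctions that acts on KDR and TEK, had 410 against 1.34 CPM (7.46), and Nos3, the endothelial nitric oxide synthase downstream of KDR, 58.1 against 2.54 CPM (4.06). The adaptor Nck1 (2.22), the phospholipase Plcg1 (1.81) and the adaptor Shb (1.73) were higher as well, and Rcan1, a calcineurin inhibitor induced by VEGF in endothelium, was lower, 78.9 against 202 CPM (-1.34). Rcan1 was highest in resting chondrocyte-like cells, at 685 CPM. Chosen after their values were seen, Vegfd and Ccbe1 are added here. Vegfd, the other FLT4 ligand, had at most 2.33 CPM in any ranked class. Ccbe1, which helps to process VEGF-C, had 31.3 CPM in stromal-like cells, the class with most Vegfc, and 0.948 CPM in vessel-like cells.

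The semaphorins and plexins showed which partners of the neuropilins were present beside VEGF. Of the 3 measured of 7 class 3 semaphorins, Sema3f (91.8 against 0.740 CPM) and Sema3g (42.6 against 0.677 CPM) were higher in vessel-like cells, and Sema3d (9.96 against 61.3 CPM) lower. All 3 measured of 5 plexins were higher, Plxnd1 at 574 against 23.4 CPM, Plxna4 at 40.9 against 1.86 CPM and Plxna2 at 110 against 30.4 CPM. In the same comparison 29.4% of all measured genes were higher and 13% lower. Between mature and immature osteoblast-like cells, Sema3b (61.1 against 4.90 CPM) and Sema3d (56.0 against 6.998 CPM) were higher and Sema3a lower (10.9 against 56.3 CPM). Plxna2 (15.4 against 164 CPM) and Plxnd1 (10.9 against 92.0 CPM) were lower, alongside Nrp1. Between these osteoblast classes 5.19% of all measured genes were higher and 15.9% lower. Within vessels Sema3a was 0.891 CPM in arterial or capillary-like and 53.3 CPM in sinusoidal-like cells. Sema3g was 317 and 1.40 CPM there, but it was 1 of the 10 markers by which the arterial or capillary-like cells were named.

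All 12 measured of 15 other vessel growth factors and their receptors were higher in vessel-like cells, against 29.4% of all measured genes. Their median log2 ratio was 5.62. They included the apelin receptor Aplnr (328 against 0.960 CPM), the angiopoietin receptors Tie1 (296 against 1.07 CPM) and Tek (203 against 0.850 CPM), and Ramp2, the partner of the adrenomedullin receptor (472 against 3.76 CPM). Tie1 and Ramp2 were also among the 14 markers by which the vessel class was named. Angpt1, the TEK ligand, also chosen after its values were seen, was highest in the stromal-like cells among cartilage, bone and vessel classes (98.4 CPM) and stood at 2.37 CPM in vessel-like cells. Angptl4, a lipase inhibitor that also acts on vessels, was 1298 CPM in sinusoidal-like and 24.0 CPM in arterial or capillary-like cells.

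Of 8 measured inhibitors of vessel growth, 3 were higher in vessel-like and 4 in chondro-osteogenic cells. Among all measured genes, 29.4% were higher and 13% lower in vessel-like cells. Cnmd, the chondromodulin of avascular cartilage, had 228 against 2063 CPM, and Serpinf1, which encodes the anti-angiogenic factor PEDF, 34.3 against 374 CPM. Col18a1, whose fragment is endostatin, was 643 against 11.8 CPM. Cnmd was 3288 CPM in maturing chondrocyte-like and 201 CPM in HC-like cells (log2 ratio -4.02, -4.13 to -3.92). But Cnmd was 1 of the 11 markers by which the maturing chondrocyte-like cells were named, and was among their leading genes. The naming favoured a high level there, so this ratio cannot be weighed against the 0.86 of Vegfa between the same cells. Serpinf1 was 2332 CPM in mature and 279 CPM in immature osteoblast-like cells (3.06). In the pooled division of osteogenic cells by origin, Thbs2 was the 1 inhibitor past 2-fold, where 0.608% of all measured genes were higher and 0.991% lower. It had 38.2 CPM in HC-derived against 115 CPM in the other cells (-1.56, -1.78 to -1.35), without regard to class mix. Within class, 1 inhibitor of 8 was higher in HC-derived stromal-like cells. In the immature class 2 of 8 were higher and 1 lower, and in the mature class 1 of 7 was lower. Over all measured genes these shares were 0.779% to 2.28%.

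Vegfa is known to be induced by low oxygen, and 16 hypoxia-inducible genes were set beside it. Of 13 measured, 8 were lower and 1 higher in vessel-like than in chondro-osteogenic cells, with a median log2 ratio of -1.32, and these included Ndufa4l2 (59.9 against 658 CPM), Bnip3 (29.6 against 309 CPM) and Higd1a (166 against 1191 CPM). Over all measured genes 13% were lower and 29.4% higher in vessel-like cells, with a median of 0.43. Between HC-like and maturing chondrocyte-like cells 3 of 12 were higher and 3 lower, with a median of -0.52. Over all genes 24.2% were higher and 7.3% lower there, with a median of 0.45. Ero1l (418 against 73.0 CPM) and Slc2a1 (215 against 93.8 CPM) were higher in HC-like cells, whereas Ndufa4l2 (245 against 1221 CPM) and Ldha (793 against 1832 CPM) were lower.

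The genes most like each member were sought by Pearson correlation of log2(CPM + 1) over the 28 clusters of at least 50 cells, among 10387 genes with at least 20 CPM in a cluster. The clusters share 1 library and its free RNA, and the values are descriptions. Flt1 was most like Tie1 (r = 0.97), Aplnr (0.97) and Cdh5 (0.96), Kdr like Rasip1, Flt4 (both 0.96) and Sox7 (0.95), and Flt4 like Sox7, She and Robo4 (each 0.96). Vegfc was most like Itga9 (0.92), Adgrl2 (0.91) and Kitl (0.90), Nrp1 like Kif1b (0.95), Ptms (0.94) and Il6st (0.94), and Nrp2 like Sh3pxd2b (0.91), Ctsl (0.90) and Dock4 (0.89). Vegfa had less close neighbours, Hk2 (0.84), Tm2d1 (0.84) and Copb1 (0.84), as had Pgf with Phf13 (0.87), Fblim1 (0.87) and Sema6d (0.87). Vegfb was most like Prmt7 (0.92), Snrpd2 (0.87) and Cdk4 (0.87). Between members, r was 0.95 for Flt1 with Kdr, 0.80 for Vegfc with Pgf, 0.54 for Vegfa with Nrp1 and -0.20 for Vegfa with Kdr.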

How the data were processed

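The authors deposited raw counts of UMIs for each barcode and gene, which they made with Cell Ranger 3.1.0 on a build of mm10 that also held WPRE and tdTomato, per the file headers and the submitters' processing notes, which also name Seurat 3. Sources used here name no annotation release. The 4 sequencing entries were counted together as 1 library, and a second deposited count matrix gave the UMIs of WPRE and tdTomato by barcode. No column of another sample was used. Adult samples of the study were not analysed here.

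Of 14181 barcodes, 8256 with 1600 or more genes, up to 10% mitochondrial and up to 50% ribosomal protein UMIs were kept; the minimum of genes follows the study, whose own cell count is smaller than either of these. Counts were scaled to 10000 per cell, log-transformed, reduced to 2000 variable genes and 30 components, and clustered by the Leiden method at resolution 1 on 20 neighbours (scanpy 1.11.5, Python 3.11.15, seed 1), with every gene of the members and the 6 related lists left out of the variable genes. Vessel-like and macrophage or osteoclast-like cells were clustered again at resolution 0.6. Clusters took a name from marker lists when at least 3 markers reached 10 CPM and a marker was among the 10 leading genes or led by its score, with limits on Ptprc, Col1a1 and Col2a1 chosen once the clusters were known, so names may differ from those of the study. Doublets were marked with Scrublet (588 barcodes, 460 of the cells kept) and kept, and 2 clusters of 202 cells, 131 of them marked, were left unnamed.

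UMIs were summed per class and given as CPM with exact Poisson intervals, and shares with exact Clopper-Pearson intervals, both at 95%. To compare shares of cells with a UMI, each cell was thinned to 5000 UMIs, with shallower cells left out. A count of 0 was given the limit of 3 counts. With 1 mouse there was no test. Ratios were log2 of CPM with 1 CPM added, for genes that reached 20 CPM in either group, and past 2-fold was called higher or lower. The log2 ratios, their calls and the thinning were tested on simulated counts with known values, and the filtering, clustering and naming were not. Those counts were Poisson draws from 1 shared profile, without variation between cells. They check the calculation, and cannot show how the intervals and calls hold where cells vary. As alternatives, class sums were scaled by TMM factors (edgeR 4.0.16) or size factors (DESeq2 1.42.0, R 4.3.3). All 9 members were named in the text, with up to 5 genes of each related list by highest level or, in a comparison, by largest ratio, besides Vegfd, Ccbe1 and Angpt1, which were added after their values were seen, and the 3 genes most like each member. The members and lists were chosen with earlier results of these data known. Promoter sequences are RefSeq's on GRCm38.p6.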

Additional observations from a re-analysis of the deposited data

How the results depend on the processing

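No paired analysis was possible because the 4 sequencing entries are 1 library and there is no second group. The Vegfa and Kdr ratios below, the receptor count and class levels of at least 20 CPM were recomputed under other limits on cells, clusterings and scalings. Ratios and calls of the other members were rerun under other scalings only. Levels by sub-cluster, shares of UMIs and of cells, values by origin within a class, genes of the related lists and correlations were not recomputed. The cause of a change was not tested unless a scaling gives it by construction. The number of receptors and neuropilins highest in vessel-like cells was 4 of 5 under every setting run, and the log2 ratio of Vegfa by origin among osteogenic cells kept its direction, at 0.04 to 0.29. The vessel over chondro-osteogenic log2 ratio of Vegfa (-1.72) was -2.08 with TMM and -2.003 with DESeq2 factors over all classes, -1.98 without the mixed sub-clusters (an alternative chosen after seeing the data), -1.89 and -1.93 with at least 1000 and 2000 genes, -1.28 and -1.88 with at most 5% and 20% mitochondrial UMIs, -1.95 without doublets, -1.94 at resolutions 0.6 and 1.5 and with 3000 variable genes, and -1.90 with the pathway genes among the variable genes. That of Kdr (7.41) was 7.08 and 7.14 with the scalings, 6.97 and 6.91 with the limits on genes, 7.61 and 6.92 with those on mitochondrial UMIs, 7.79 without doublets, 6.84 at resolution 0.6, 6.91 with 3000 variable genes and 6.87 with the pathway genes included. Vegfa in HC-like over maturing chondrocyte-like cells (0.86) was 0.34 and 0.39 with the scalings and 0.65 at 20% mitochondrial UMIs, and gave no value at 5% or without doublets, where a class was not formed. In mature over immature osteoblast-like cells (-0.12) it turned to 0.35 and 0.37 with the scalings, was -0.38 at 20% mitochondrial UMIs and -0.50 at resolution 0.6, and gave no value with 3000 variable genes.

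The counts of genes past 2-fold moved more. With TMM and DESeq2 factors over the compared sums, also chosen after seeing the data, they were 1215 and 1280 higher (1992 before) and 1456 lower with TMM (880) in vessel-like cells, 621 and 728 higher (1446) and 1037 and 915 lower (436) in HC-like cells, 676 and 688 higher (319) and 355 and 352 lower (979) in mature osteoblast-like cells, and 497 and 516 higher (828) in arterial or capillary-like cells. With a minimum of 5 CPM they were 1464 lower in vessel-like, 2567 higher and 696 lower in HC-like, 1883 lower in mature osteoblast-like, 89 higher (35) and 172 lower (57) in HC-derived, and 1506 higher and 956 lower (497) in arterial or capillary-like cells. With 10 CPM added they were 954 higher in HC-like, 501 lower in mature osteoblast-like, 13 higher and 31 lower in HC-derived and 526 higher in arterial or capillary-like cells. Of 620 alternative values of 55 member levels at 20 CPM or more, 333 stayed within the counting interval, 287 left it and 36 moved by over 1.5-fold, which are named beside the levels they touch or lie in dendritic-like, neutrophil-like, monocyte-like and macrophage or osteoclast-like cells. Depth limits what can be said of Vegfc in cartilage, where proliferating, maturing, pre-HC-like and HC-like cells held 0 to 4 UMIs each and resting chondrocyte-like cells 24.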
